A study of Arabidopsis thaliana with 12 samples.

Results

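The transcriptomes of 2 Arabidopsis thaliana mutants, se-1 and cbp20, were compared directly, to find the genes and pathways that separate a SERRATE mutant from a mutant of the nuclear cap-binding complex. The comparison rests on 6 of the 12 libraries of the series, chosen by the genotype in their labels: 3 of se-1 and 3 of cbp20. The other libraries, 3 of WT and 3 of cbp80, entered the estimate of the spread, and their levels are given beside those of the mutants. All plants were Col-0 seedlings of 16 days, grown without treatment on MS medium in continuous light and harvested whole. The material lay on ice for a while at harvest, before it was frozen. Poly(A) RNA was sequenced, and each library came from its own pool of plants. The se-1 allele carries a small deletion and retains part of the function of SE, as null alleles are lethal. The cbp20 and cbp80 plants carry mutations in the small and in the large subunit of the cap-binding complex (CBC), and each mutant is represented by a single line.

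SERRATE (SE) is a zinc-finger protein that works with the RNase III enzyme DCL1 and the double-stranded RNA-binding protein HYL1 to cut primary miRNA transcripts (pri-miRNAs) into miRNAs. CBC binds the cap of new RNA polymerase II transcripts and takes part in pri-miRNA processing and in pre-mRNA splicing together with SE. When processing fails, pri-miRNAs accumulate, mature miRNAs become scarce, and mRNAs that miRNAs would cleave can rise. Mutants of SE have serrated leaves and altered phase change, and mutants of CBC are hypersensitive to abscisic acid (ABA).

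Several mature miRNAs introduce the genes on which the comparison turns, because their precursor loci or their targets separated se-1 from cbp20. The sequences were read from the RefSeq assembly TAIR10.1, and capitals mark the seed, bases 2 to 8:
miR156c-5p: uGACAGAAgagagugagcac
miR157c-5p: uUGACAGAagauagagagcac
miR164b-5p: uGGAGAAGcagggcacgugca
miR166b-3p: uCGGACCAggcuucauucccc
miR167a-5p: uGAAGCUGccagcaugaucua
miR168a-5p: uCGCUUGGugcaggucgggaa
miR169a-5p: cAGCCAAGgaugacuugccga
miR172b-3p: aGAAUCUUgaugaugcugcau
The mature miR156a-5p has the same letters as miR156c-5p, and miR157c-5p carries the same core shifted by 1 base, so that the seeds of miR156 and miR157 overlap. The locus of miR168a-5p lies on chromosome 4 and its mature sequence at chr4:10578652-10578672 on the plus strand, and that of miR172b-3p at chr5:1188211-1188231 on the minus strand.

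The se-1 libraries held 19079724 to 21919462 read pairs assigned to genes, and the cbp20 libraries 18565569 to 27068656. Of 32833 genes, 20882 had enough counts to be tested. In edgeR's quasi-likelihood test, 2847 genes (13.6%) differed between se-1 and cbp20 at an adjusted p under 0.05. Of these, 1545 (7.40%) were higher in se-1 and 1302 (6.24%) were lower. With scaling to library totals alone, in place of TMM, 1237 were higher and 1869 were lower, so the share of higher genes among the calls moved from 54.3% to 39.8%. Most differences were small: the called genes had a median log2 fold change of 0.44 upwards and -0.39 downwards, and only 365 (1.75%) were at least 2-fold apart, 227 of them (1.09%) higher and 138 (0.661%) lower in se-1. The 3 libraries of each mutant did not overlap for 6233 genes (29.8%). In the same fit, 35.7% of genes were called in se-1 against WT and 20.9% in cbp20 against WT, 2 comparisons that share the WT libraries. Fold changes below are se-1 minus cbp20 on the log2 scale with the standard error of the fit after ±. Levels are CPM, counts scaled to the TMM-adjusted depth of each library, and where 1 level is given for a genotype it is the mean, with its SD, of n = 3 libraries.

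**Figure D1:**
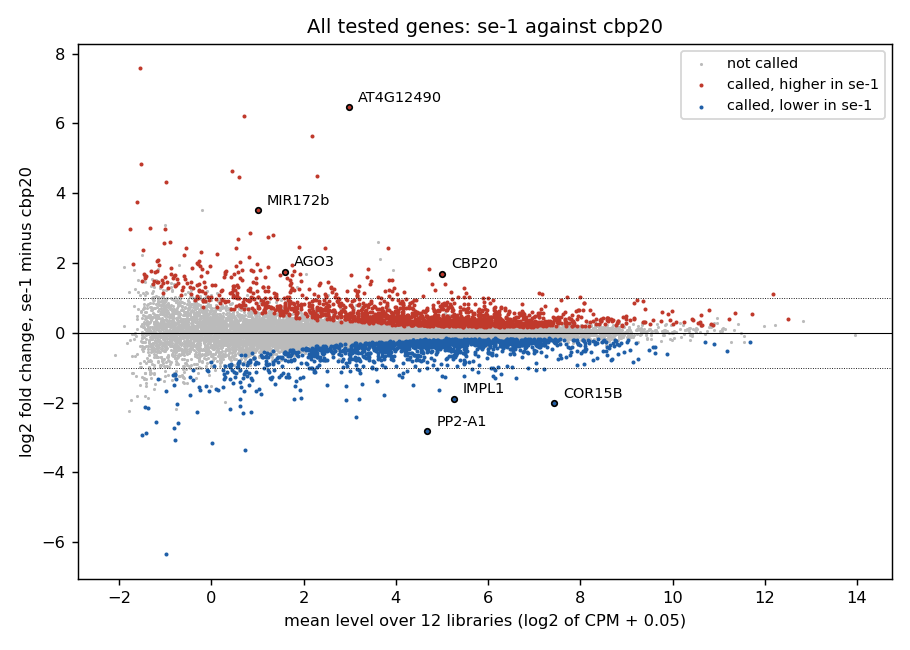
Log2 fold change between se-1 and cbp20 (y axis) against the mean level over all 12 libraries (x axis, log2 of CPM + 0.05), 1 point per tested gene. Red points were called higher and blue points lower in se-1, and dotted lines mark a 2-fold difference, which 365 of the 2847 called genes reached.

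The mutated genes were examined first. CBP20, on chromosome 5, was at 38.1, 40.2 and 42.2 CPM in the se-1 libraries and at 12.3, 13.6 and 11.2 CPM in the cbp20 libraries, beside 36.3 CPM on average in WT. It was thus low in the cbp20 libraries alone, and the difference between the mutants was 1.70 ± 0.08 (adjusted p = 1.5e-09). SE transcripts stood at 80.1 ± 1.79 CPM in se-1 and 87.1 ± 4.95 CPM in cbp20 (fold change -0.12 ± 0.05, adjusted p = 0.162). Counts over the whole SE gene do not test a small deletion, so the label of se-1 was not checked by them. CBP80 stood at 52.7 ± 1.55 CPM in se-1 and 47.3 ± 3.35 CPM in cbp20 (0.15 ± 0.08, adjusted p = 0.261).

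The precursors of miRNAs were the annotated gene type with the highest share of calls. Counts on MIRNA loci in poly(A) RNA come from pri-miRNAs and not from mature miRNAs. Summed over all 325 annotated loci, they came to 315.2, 310.0 and 311.7 CPM in se-1 and to 152.9, 148.8 and 154.0 CPM in cbp20, against 68.8 to 74.4 CPM in WT and 192.9 to 210.3 CPM in cbp80. The se-1 libraries lay above all others and did not overlap with any other genotype. Of the 325 loci, 150 had no count in any library and 60 were tested. Of the 60, 35 were higher in se-1 (58.3%, where 7.40% of all genes were), 31 of them at least 2-fold. The number lower in se-1 was 0 in edgeR, both at the adjusted threshold and at an unadjusted p under 0.05, and also 0 in DESeq2, which called 31 higher. The median log2 fold change of the 60 was 1.15, and that of all tested genes was -0.004. Because a locus that is silent elsewhere can pass the filter only through se-1, the loci were also counted without those libraries: 47 passed on the other 9 libraries, 24 of them called higher, with a median of 0.94. Of the 34 that passed on the cbp20 and WT libraries alone, 20 were called higher. Without se-1 replicate 2, 23 loci were called higher of the 52 that then passed the filter.

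MIR157c was the most abundant of the called loci. It was at 73.8, 59.1 and 67.1 CPM in se-1 and at 26.1, 23.8 and 25.5 CPM in cbp20, and the lowest se-1 library was far above the highest cbp20 library (1.40 ± 0.09, adjusted p = 4.62e-08). WT had 7.38 CPM. MIR156c, of the same family of precursors whose miRNAs restrain SPL transcription factors in juvenile plants, was at 25.6, 24.2 and 24.4 CPM in se-1 and 11, 11.7 and 9.35 CPM in cbp20 (1.2 ± 0.09). MIR156a and MIR156d were higher by 1.04 ± 0.13 and 0.94 ± 0.21. MIR157a (0.56 ± 0.22) and MIR157b (0.70 ± 0.48) were not called. MIR168a, whose miRNA acts on AGO1, was at 27.2, 33.0 and 31.0 CPM in se-1 and at 9.91, 8.99 and 13.6 CPM in cbp20, beside 0.79 CPM in WT (1.5 ± 0.13, adjusted p = 1.3e-06).

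MIR172b stood apart from the other abundant precursors. Its miRNA acts on the AP2 family of floral repressors. It was at 6.05, 6.89 and 5.78 CPM in se-1, at 0.441, 0.632 and 0.591 CPM in cbp20 and at 0.231 CPM in WT, a difference of 3.5 ± 0.28 between the mutants (11.3-fold, adjusted p = 5.12e-07). The cbp80 libraries averaged 0.84 CPM, so the high level was found in se-1 alone among the 4 genotypes. MIR166b, of the family that acts on HD-ZIP III genes, was at 3.38, 4.86 and 4.39 CPM in se-1 and at 0.477, 0.994 and 0.483 CPM in cbp20 (2.69 ± 0.28). MIR166a, which passed the filter only through the se-1 libraries, differed by 2.59 ± 0.37 at a lower level. MIR169a, of the family that acts on NF-YA genes, was higher by 1.70 ± 0.22. It shares 6.19% of its exon length with another gene.

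The other called families covered much of the conserved set. MIR167a, MIR167b and MIR167d were called higher, with differences from 1.11 (MIR167d) to 1.55 (MIR167b). All 3 MIR171 loci were called higher too, from 1.15 (MIR171b) to 1.36 (MIR171c). MIR319a, MIR397b, MIR393b, MIR166a and MIR167c (1.70) passed the filter only through the se-1 libraries, and their calls are given as a description. MIR319a, which acts on TCP genes, was at 0.857, 1.02 and 1.07 CPM in se-1 and at 0.0734, 0.181 and 0.107 CPM in cbp20 (3.00 ± 0.44). MIR397b, which acts on laccases, was at 0.504, 0.463 and 0.535 CPM in se-1 and at 0.0734, 0.0 and 0.107 CPM in cbp20 (2.97 ± 0.61). MIR393b, which acts on auxin receptors, had 26, 20 and 14 counts in se-1 and 0, 1 and 1 counts in cbp20. With so few counts the ratio of the depth-scaled sums, 33.9, has a 95% exact interval from 8.99 to 287 that covers counting error only. MIR159b (0.55 ± 0.13) and MIR158a (0.73 ± 0.18) were among the called loci less than 2-fold apart. MIR319a, MIR397b, MIR393b, MIR166a and MIR167c were not tested in the 3 fits that left out an se-1 library, since they then fell below the filter, and were called in the 3 fits that left out a cbp20 library. The call of MIR158a held in 5 of 6 fits. MIR163, MIR822, MIR850 and MIR4228 were the tested loci with a value below 0, from -0.33 to -0.16, none of them called. Uncalled loci above 0 included MIR164b (0.49), MIR160c (0.41), MIR162a (0.54), MIR162b (1.23), MIR396a (0.93), MIR399c (0.55) and MIR403 (0.61).

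**Figure D2:**
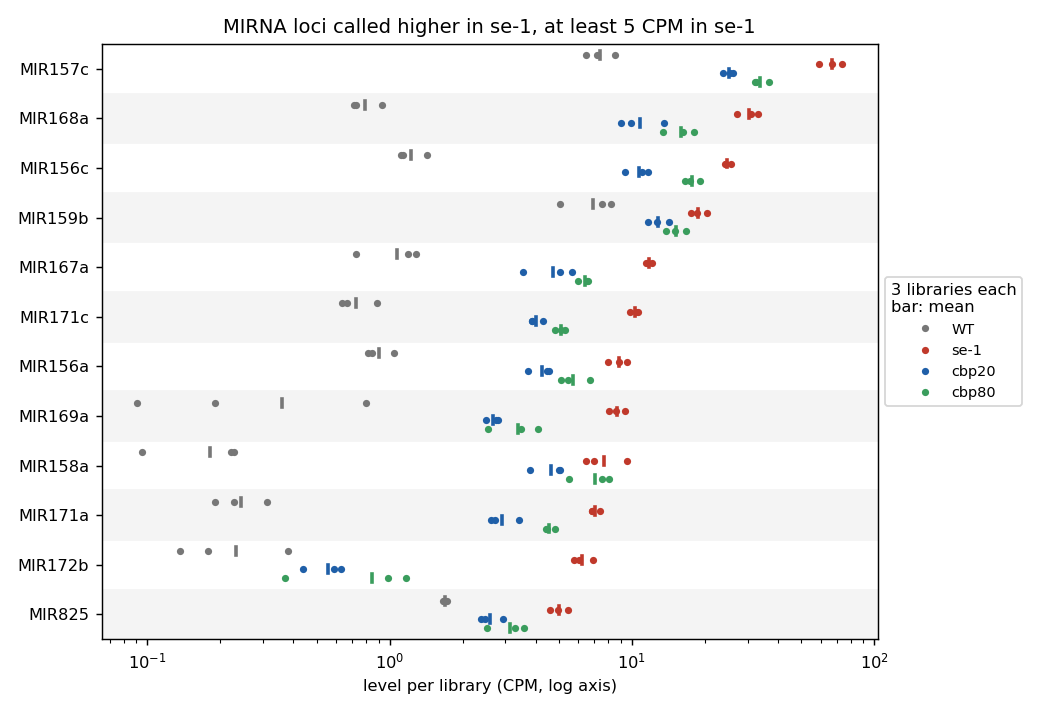
Level of each library (x axis, CPM on a log axis) for the 12 MIRNA loci called higher in se-1 with at least 5 CPM there (y axis). Points are single libraries of WT, se-1, cbp20 and cbp80 and bars are means of 3; the se-1 points lie above all cbp20 points in every row, by the widest gap for MIR172b.

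The known mRNA targets of miRNAs were higher in se-1 in many families, by smaller amounts than the precursors. The list of targets also holds ARF2, ARF3 and ARF4, which siRNAs from the TAS3 precursor target. Of 80 target genes listed, 77 were tested: 33 were higher in se-1 (42.9%, where 7.40% of all genes were) and 5 lower (6.49%, where 6.24% of all genes were), with a median log2 fold change of 0.22. Leaving out any 1 library of the 6 left 27 to 31 higher and 3 to 5 lower. The stretches of target mRNA that pair best with the miRNAs above were looked up in the spliced RefSeq transcripts, and are shown for families that separated the mutants. Capitals mark bases that can pair with the miRNA by Watson-Crick rules:
CUC1 with miR164b-5p: aGCACGUGuCCUGuUUCUCCA
NAC1 with miR164b-5p: aGCACGUaCCCUGCUUCUCCA
PHB with miR166b-3p: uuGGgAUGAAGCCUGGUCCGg
AGO1 with miR168a-5p: UUCCCGAgCUGCAuCAAGCuA
SPL9 with miR156c-5p: GUGCUCuCUCUCUUCUGUCA
ARF8 with miR167a-5p: UAGAUCAgGCUGGCAGCUUgu
SNZ with miR172b-3p: uUGuAGCAUCAUCAgGAUUCc
Paired bases numbered 18 of 21 for CUC1, 19 of 21 for NAC1, 17 of 21 for PHB and 19 of 20 for SPL9. CUC2 holds the same letters as CUC1, PHV the same as PHB and SPL6 the same as SPL9, and in PHB and PHV the stretch is completed only by splicing. Such a match is a description of the letters and does not show cleavage.

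Among the NAC transcription factors that miR164 restrains was CUC1, the target gene with the highest fold change. CUC1 sets organ boundaries in the shoot, and was at 1.56, 1.34 and 2.25 CPM in se-1 and at 0.514, 0.406 and 0.269 CPM in cbp20 (2.04 ± 0.33, adjusted p = 0.000492). The lowest se-1 library had more than the highest cbp20 library, and WT had 0.44 CPM, close to cbp20. CUC2, its partner in boundaries, was at 2.52 ± 0.309 CPM in se-1 and 1.12 ± 0.183 CPM in cbp20 (1.15 ± 0.22). NAC1, an auxin-responsive factor of lateral roots that shares 36.7% of its exon length with another gene, was higher by 0.57 ± 0.08. NAC092, a regulator of senescence, had 0.59 ± 0.14, a call that did not hold without every library. In all, 4 of 6 tested members were called, each of them higher in se-1 (66.7%, where 7.40% of all genes were).

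Among SPL factors, which promote the adult phase and flowering, 6 of 8 tested members were called. Each of them was higher in se-1 (75.0%, where 7.40% of all genes were). SPL9 was at 11.3, 12.2 and 11.5 CPM in se-1 and at 7.16, 7.45 and 6.45 CPM in cbp20, with no overlap (0.73 ± 0.10, adjusted p = 0.000128). SPL6 was higher by 0.54 ± 0.10, SPL4 by 0.74 ± 0.19 and SPL5 by 1.02 ± 0.25. SPL4 and SPL5 share 14.4% and 25.5% of their exon length with other genes, and their calls did not hold without every library. Of the HD-ZIP III factors, which set the upper side of leaves, 3 of 5 were called higher (60.0%, where 7.40% of all genes were). PHV was higher by 0.68 ± 0.08, ATHB15 by 0.66 ± 0.06 and PHB by 0.64 ± 0.05. PHB was at 92.5, 104 and 96.3 CPM in se-1 and at 65, 59.7 and 62.9 CPM in cbp20, beside 48.8 CPM in WT. The other 2, REV and ATHB8, had values of 0.10 and 0.06.

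The copper proteins under miR398, miR408 and miR397 were another group with many calls, 5 of 9. Each of them was higher in se-1 (55.6%, where 7.40% of all genes were). ARPN, a plantacyanin, was at 8.87, 9.39 and 8.72 CPM in se-1 and at 3.67, 2.8 and 3.65 CPM in cbp20 (1.41 ± 0.13, adjusted p = 3.23e-06). WT, at 4.09 CPM, lay beside cbp20. The Cu/Zn superoxide dismutases CSD2 and CSD1 were higher by 1.17 ± 0.10 and 0.80 ± 0.09, and LAC3, a laccase, by 0.84 ± 0.11. CSD2 rose from 28.4 ± 3.26 CPM in cbp20 to 63.7 ± 7.72 CPM in se-1. All 5 were also called without any 1 of the 6 libraries. The other laccase genes, LAC4 (0.04), LAC12 (-0.77), LAC13 (0.22) and LAC17 (0.17), were not called.

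Growth regulators were higher too. Of 7 GRF genes, targets of miR396 that promote leaf growth, 4 were called higher (57.1%, where 7.40% of all genes were). GRF8 was at 2.42 ± 0.527 CPM in se-1 and 0.938 ± 0.27 CPM in cbp20 (1.33 ± 0.29). Without se-1 replicate 3, 2 GRF genes were called. Of 10 NF-YA and HAM genes, 5 were higher (50.0%, where 7.40% of all genes were). They were led by the NF-Y subunits NFYA2 (0.85 ± 0.09) and NFYA3 (0.78 ± 0.10). This list gave 3 calls without cbp20 replicate 1, se-1 replicate 1, se-1 replicate 2 or se-1 replicate 3. Among 11 auxin response factors and auxin receptors, ARF4 (0.62 ± 0.06), ARF8 (0.55 ± 0.05), ARF3 (0.35 ± 0.07) and ARF6 (0.22 ± 0.06) were higher, and ARF2 (-0.21 ± 0.06) was lower. The shares were 36.4% higher and 9.09% lower, where 7.40% and 6.24% of all genes were. ARF8 was at 104, 98 and 101 CPM in se-1 and at 70.5, 63.9 and 72.6 CPM in cbp20. The auxin receptor genes TIR1 (-0.03), AFB2 (-0.15) and AFB3 (-0.09), on which miR393 acts, were not called. The calls of ARF6 and ARF2 did not hold without every library. ARF2, ARF3 and ARF4 are targets of siRNAs from TAS3, and ARF6 and ARF8 are targets of miR167.

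Of the AP2 family, which miR172 acts on, 2 of 6 members were called, both lower in se-1 (33.3%, where 6.24% of all genes were). SNZ was at 29.9, 26.7 and 29.4 CPM in se-1 and at 47.4, 46.7 and 41.7 CPM in cbp20 (-0.66 ± 0.07, adjusted p = 8.75e-06). WT lay between the mutants, at 37.0 CPM. SMZ, which shares 30.6% of its exon length with another gene, was at 4.36 ± 0.765 CPM in se-1 and 7.67 ± 0.696 CPM in cbp20 (-0.81 ± 0.15). Both encode repressors of flowering. AP2, TOE1, TOE2 and TOE3 had values between -0.17 and 0.01. Among TCP and MYB genes 1 of 7 was called, MYB33 (0.49 ± 0.09), with TCP genes between -0.24 and 0.10. This share, 14.3%, was near the 13.6% of all genes. Without cbp20 replicate 2, 1 gene of this list was also called lower. In the group of nutrient transporters and methyltransferases 3 of 8 were called (37.5%, where 13.6% of all genes were). PXMT1, a methyltransferase gene and target of miR163, was higher by 1.93 ± 0.32, whereas the sulphate transporter SULTR2;1 (-0.43 ± 0.08) and the ATP sulfurylase APS3 (-0.37 ± 0.10) were lower. Without cbp20 replicate 1, cbp20 replicate 2, se-1 replicate 2 or se-1 replicate 3, 1 of the group was lower.

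**Figure D3:**
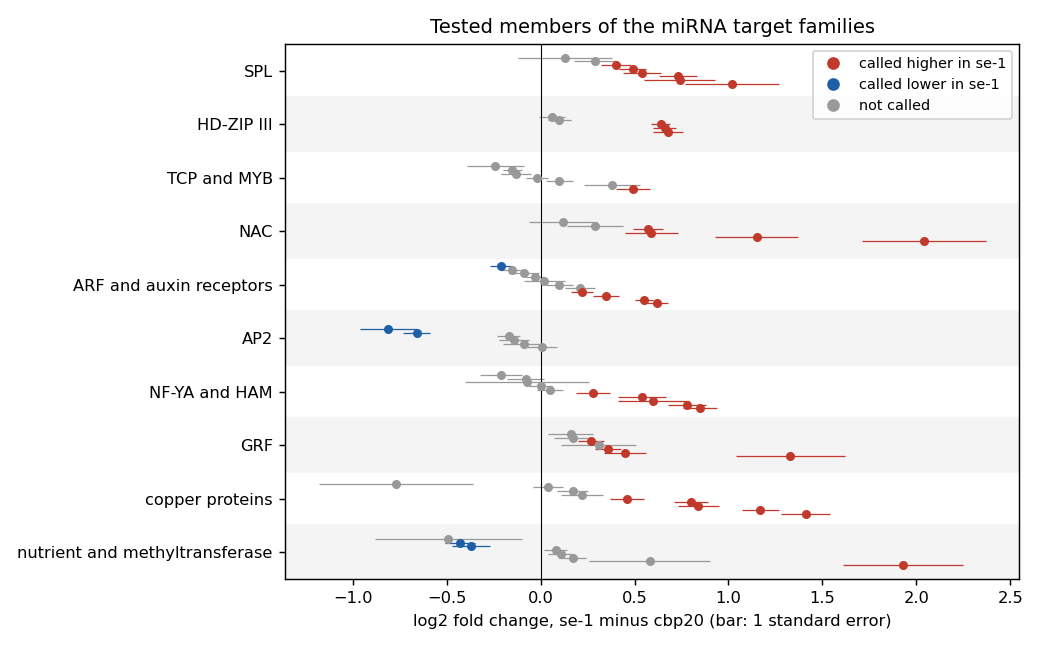
Log2 fold change between se-1 and cbp20 (x axis, bars are 1 standard error) for every tested member of 10 target families (y axis). The targets are those of miRNAs and, for ARF2, ARF3 and ARF4, of siRNAs from TAS3. Red and blue points were called higher and lower in se-1 and grey points were not called; CUC1 at 2.04 is the rightmost point and SMZ at -0.81 the leftmost.

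The called genes of the miRNA machinery include targets of miRNAs. Of 23 genes tested, 5 were called (21.7%, where 13.6% of all genes were), 4 higher in se-1 and 1 lower, and each of the 5 was also called without any 1 library. A further gene was lower without cbp20 replicate 3 or se-1 replicate 2, which gave 2 lower genes. DCL1, the nuclease of pri-miRNA processing, was at 92.6, 103 and 98 CPM in se-1 and at 60.1, 57 and 64 CPM in cbp20 (0.70 ± 0.06, adjusted p = 1.89e-06). WT and cbp80 were at 60.0 and 59.9 CPM, so se-1 stood apart from all 3. DCL1 shares 13.5% of its exon length with another gene. AGO1, the main carrier of miRNAs, was at 294 ± 23 CPM in se-1 and 207 ± 2.43 CPM in cbp20 (0.51 ± 0.06). AGO2, which acts in antiviral defence, was higher by 0.89 ± 0.06 and the phosphatase gene CPL1 by 0.47 ± 0.06. STA1, a splicing factor of the spliceosome core, was lower by 0.44 on the log2 scale (-0.44 ± 0.06). HYL1, HEN1 and HST, the partner of DCL1, the methylase and an exportin of miRNAs, had values between -0.01 and 0.02.

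Of 6 TAS precursors, which give rise to trans-acting siRNAs, TAS1C and TAS3 were higher, both by 0.55. That is 33.3% of the list called higher, where 7.40% of all genes were. TAS3 was at 30, 24.5 and 24.3 CPM in se-1 and at 18.9, 15.4 and 19.5 CPM in cbp20. Of 10 genes of cap binding and of cytoplasmic or nuclear RNA decay, the number called was 0 in edgeR and in DESeq2, where 13.6% of all genes were called, and 1 had an unadjusted p under 0.05. Their fold changes lay between -0.10 and 0.12. Of 21 splicing factors, 2 were called (9.52%, where 13.6% of all genes were). GRP7, an RNA-binding protein under clock control, was lower (741 ± 90.6 CPM in se-1, 1130 ± 65.9 CPM in cbp20, -0.61 ± 0.09), and so was the SR protein gene RS40 (-0.35 ± 0.06).

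The study reported that the association of SE with the target loci it examined was blocked in cbp20 mutants. From a far longer list of sites bound by SE on chromatin, which was not examined here, it selected 12 loci to check by qPCR. Of these, 11 were tested and 1 was called between the mutants (9.09%, where 13.6% of all genes were), JAZ1, a repressor of jasmonate responses: 28.5 ± 0.651 CPM in se-1 and 34 ± 4.29 CPM in cbp20 (-0.25 ± 0.08, adjusted p = 0.0362), a call that did not hold without every library. The other 10 had fold changes between -0.27 and 0.41. CBF1, a cold-induced transcription factor gene, was at 5.15 ± 0.868 CPM in se-1 and 4.17 ± 2.03 CPM in cbp20, beside 10.6 CPM in WT. Without cbp20 replicate 3, 3 of the loci were called higher, and without se-1 replicate 1, 1 was. Because intronless genes are the subject of the study, calls were also counted by the number of introns. Of 3449 tested genes without introns, 7.68% were higher and 5.89% lower in se-1. Of 7153 genes with more than 5 introns, 7.10% were higher and 6.36% lower, beside 7.40% and 6.24% of all genes. Among protein-coding genes alone, the shares without introns were 6.77% and 6.07%.

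Of 15 genes of phase change and flowering, 8 were called, 4 in each direction (26.7% higher and 26.7% lower, where 7.40% and 6.24% of all genes were). FLC, a repressor of flowering, had 0 counts in all 3 se-1 libraries and 14, 12 and 6 in cbp20, so it was at least 9.43-fold lower in se-1 against a floor of 3 counts over the group. FLC had 0 counts in cbp80 too and 1.35 CPM in WT, and it shares 68.1% of its exon length with an overlapping gene. AP1, which marks floral meristems, had 16, 20 and 30 counts in se-1 and 0 in cbp20, at least 24.9-fold higher in se-1 against the same floor. AP1 passed the filter only through se-1, so that its call is no support for the count of the list, and without an se-1 library it was not tested. FUL, a relative of AP1, was at 3.38, 4.63 and 5.24 CPM in se-1 and at 1.91, 2.08 and 2.42 CPM in cbp20 (1.06 ± 0.19, adjusted p = 0.00108), and the flowering integrator SOC1 was higher by 0.43 ± 0.07. CO, which promotes flowering in long days and shares 25.4% of its exon length with another gene, was higher by 0.64 ± 0.14. AGL24 (-0.69 ± 0.09) and the FLC relatives MAF4 (-0.86 ± 0.24) and MAF1 (-0.27 ± 0.08) were lower. The calls of MAF4 and MAF1 did not hold without every library, and without cbp20 replicate 2, se-1 replicate 1 or se-1 replicate 2 the list had 2 lower genes.

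Leaf polarity and KNOX genes gave 4 calls of 15, 2 in each direction (13.3% each, where 7.40% of all genes were higher and 6.24% lower). AS1, which represses KNOX genes in leaves, was at 102, 97.5 and 102 CPM in se-1 and at 151, 133 and 147 CPM in cbp20, beside 154 CPM in WT (-0.51 ± 0.06, adjusted p = 4.59e-05). It shares 17.2% of its exon length with another gene. KNAT1, a KNOX gene of the shoot meristem, was at 23.9 ± 3.1 CPM in se-1 and 17.5 ± 0.61 CPM in cbp20, with WT between them at 20.5 CPM (0.46 ± 0.09). AS2, the partner of AS1, was higher by 0.50 ± 0.15, and KNAT4 lower (-0.32 ± 0.08), and these 2 calls did not hold without every library. Without cbp20 replicate 1, 1 gene was higher, and without cbp20 replicate 3, 1 was lower.

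The circadian clock was the list with the largest share of calls among the groups of protein-coding genes. Of 14 genes, 7 were higher in se-1 and 5 lower (50.0% and 35.7%, where 7.40% and 6.24% of all genes were). LHY, a morning gene, was at 401, 325 and 400 CPM in se-1 and at 201, 183 and 171 CPM in cbp20 (1.02 ± 0.08, adjusted p = 5.12e-07). The groups were well apart, and WT was at 132 CPM and cbp80 at 324 CPM. Its partner CCA1 was higher by 0.76 ± 0.08 and PRR9, which peaks after them, by 0.98 ± 0.12. The evening genes TOC1 (-0.38 ± 0.07), ELF4 (-0.37 ± 0.08) and LUX (-0.31 ± 0.07) were lower, as was FKF1 (-0.44 ± 0.11), a light-sensing regulator of flowering whose call did not hold without every library. TOC1 was at 106, 130 and 110 CPM in se-1 and at 147, 150 and 155 CPM in cbp20. GI (0.02 ± 0.12) and PRR5 (0.20 ± 0.13) were not called. Plants grew in continuous light, and the labels used here give no hour of harvest for either genotype. Without se-1 replicate 1, 3 genes were lower.

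Of 16 cold and drought effectors, 2 were higher in se-1 and 5 were lower (12.5% and 31.2%, where 7.40% and 6.24% of all genes were). COR15B, a chloroplast protein of cold acclimation, was at 57.7, 52.9 and 58.3 CPM in se-1 and at 222, 150 and 316 CPM in cbp20, with WT at 340 CPM (-2.03 ± 0.19, adjusted p = 2.03e-06). The cbp80 libraries averaged 61.9 CPM, near se-1. Its tandem copy COR15A was lower by 1.03 (-1.03 ± 0.16), COR6.6 by 0.90 (-0.90 ± 0.16) and COR78 by 0.48 (-0.48 ± 0.12). COR15B shares 29.5% of its exon length with another gene, and pairs that align to both copies were not counted. The transcription factor genes CBF2 and CBF3, which activate COR genes, were higher in se-1, by 1.11 ± 0.19 and 0.72 ± 0.21. CBF2 was at 8.57, 8 and 8.08 CPM in se-1 and at 2.83, 4.06 and 4.73 CPM in cbp20, while WT had 10.2 CPM. The other 9 were not called, among them CBF1 (0.34), DREB2A (0.14) and the COR and dehydrin genes KIN1 (0.59), COR47 (0.02) and ERD10 (-0.13). The calls of CBF3 and COR78 did not hold without every library, and 1 gene was higher without cbp20 replicate 1, cbp20 replicate 2 or se-1 replicate 3, and 4 without se-1 replicate 1. The time on ice at harvest is given in the labels for all groups alike, and its part in these values was not tested.

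ABA signalling gave 3 higher and 3 lower of 19 genes (15.8% each, where 7.40% and 6.24% of all genes were). The receptor gene PYL5 was higher in se-1 (14.8 ± 2 CPM against 9.41 ± 1.01 CPM, 0.67 ± 0.13), and PYL4 and PYL8 were higher by 0.21 ± 0.06 and 0.20 ± 0.05. PP2CA, a phosphatase that restrains ABA signalling, was lower (-0.42 ± 0.10), as were the ABA hydroxylases CYP707A1 (-0.59 ± 0.13) and CYP707A3 (-0.61 ± 0.18). Without cbp20 replicate 1 or se-1 replicate 2, 1 ABA gene was higher, and the calls of PYL4, PYL8 and CYP707A3 did not hold without every library.

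Of 14 genes of phosphate starvation, 8 were called, each of them lower in se-1 (57.1%, where 6.24% of all genes were), and the median log2 fold change was -0.66. IPS1, a non-coding RNA that sequesters miR399, was at 1.51, 0.694 and 1.07 CPM in se-1 and at 2.86, 2.98 and 3.38 CPM in cbp20 (-1.49 ± 0.30, adjusted p = 0.00307). WT stood far above both, at 14.7 CPM. PS2, a phosphatase gene, was at 3.29 ± 0.625 CPM in se-1, 6.86 ± 1.52 CPM in cbp20 and 28.4 CPM in WT (-1.05 ± 0.23). MGD3, a galactolipid synthase that replaces phospholipids, was lower by 1.63 (-1.63 ± 0.30), and AT4, a relative of IPS1, by 0.93 (-0.93 ± 0.23), the latter a call that did not hold without every library. Leaving out any 1 library left 6 to 9 of them called lower.

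Iron genes gave 4 calls of 16, each of them higher in se-1 (25.0%, where 7.40% of all genes were), with overlapping libraries for 3 of the 4. The iron transporter IRT1 was at 41.3, 57.4 and 28.5 CPM in se-1 and at 30.3, 26.8 and 23.4 CPM in cbp20 (0.66 ± 0.18), and WT was at 7.66 CPM. The reductases FRO2 and FRO3 and the transporter OPT3 had values of 0.56, 0.44 and 0.30. None of these 4 calls held without every library: the list gave 4 without se-1 replicate 1 and between 0 and 2 without any other library. Without se-1 replicate 1, 2 iron genes were also lower, and without cbp20 replicate 2, 1 was.

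Defence genes of the salicylic acid and PR group gave 6 calls of 18, each of them higher in se-1 (33.3%, where 7.40% of all genes were). FMO1, an enzyme of N-hydroxypipecolic acid synthesis in systemic resistance, was at 11.4, 11.1 and 11 CPM in se-1 and at 6.13, 7.09 and 5.96 CPM in cbp20 (0.81 ± 0.15, adjusted p = 0.00208). PR5, a thaumatin-like protein, was at 15.1 ± 7.53 CPM in se-1 and 7.49 ± 1.07 CPM in cbp20 (1.01 ± 0.30), a call that did not hold without every library. PR1 and PR2, at 14.2 and 23.4 CPM on average in se-1 and at 2.26 and 5.21 CPM in cbp20, overlapped between the groups and were not called (adjusted p = 0.220 and 0.0619). The list gave 2 calls without se-1 replicate 3 and 3 without cbp20 replicate 1 or cbp20 replicate 3. Of 20 jasmonate genes, 2 were higher and 5 lower (25.0%, where 6.24% of all genes were lower). VSP2, a storage protein that jasmonate induces, was at 29.9, 39.7 and 44.1 CPM in se-1 and at 16.9, 16.4 and 14.7 CPM in cbp20 (1.24 ± 0.13, adjusted p = 7.92e-06), with WT at 53.1 CPM. LOX2, a lipoxygenase of jasmonate synthesis, was at 189 ± 36.3 CPM in se-1 and 323 ± 24.7 CPM in cbp20 (-0.78 ± 0.14), both below the 989 CPM of WT, whereas AOC2, a later enzyme of the pathway, was higher by 0.55 ± 0.12. The lower jasmonate genes numbered 3 without cbp20 replicate 1, cbp20 replicate 3 or se-1 replicate 1, 2 without se-1 replicate 2 and 1 without se-1 replicate 3.

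Of 19 glucosinolate genes, 8 were called, each of them lower in se-1 (42.1%, where 6.24% of all genes were), and the median of the list was -0.24. CYP79B3 and CYP79B2, which convert tryptophan for indolic glucosinolates, were lower by 0.52 (-0.52 ± 0.09) and 0.43 (-0.43 ± 0.06), CYP83B1 by 0.41 (-0.41 ± 0.07) and CYP79F1, of the aliphatic branch, by 0.42 (-0.42 ± 0.10). CYP79B3 was at 61.1, 60.4 and 58.5 CPM in se-1 and at 78.5, 98.7 and 80.8 CPM in cbp20. Leaving out any 1 library left 6 to 11 called. Of 15 flavonoid genes, 3 were higher and 1 was lower in se-1 (20.0% and 6.67%, where 7.40% and 6.24% of all genes were). MYBL2, a repressor of anthocyanin synthesis, was higher (168 ± 25.6 CPM against 94.1 ± 14.9 CPM, 0.84 ± 0.12), as were FLS1 (0.70 ± 0.11) and TT4 (0.68 ± 0.13), enzymes of flavonol synthesis. PAP1, an activator of anthocyanin synthesis, was at 1.16, 2.04 and 2.25 CPM in se-1 and at 3.27, 6.14 and 3.76 CPM in cbp20 (-1.27 ± 0.26). Without se-1 replicate 3, 2 flavonoid genes were lower.

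Nuclear genes of the photosystems and Rubisco gave 9 calls of 18, each of them higher in se-1 (50.0%, where 7.40% of all genes were), with a median of 0.31. LHCB3, a light-harvesting protein of photosystem II, was at 1460, 1350 and 1570 CPM in se-1 and at 810, 1140 and 915 CPM in cbp20, with WT at 530 CPM (0.61 ± 0.12, adjusted p = 0.00232). LHCA4, LHCA1 and LHCB2.1 were higher by 0.58 ± 0.10, 0.55 ± 0.11 and 0.53 ± 0.08. The 18 genes together came to 51700 to 58200 CPM in se-1 and 42200 to 46400 CPM in cbp20. Of 19 early auxin genes, 5 were higher and 2 were lower in se-1 (26.3% and 10.5%, where 7.40% and 6.24% of all genes were). Among the higher ones were GH3.3 (0.74 ± 0.11), an auxin-conjugating enzyme, and SAUR63 (0.84 ± 0.16), a growth gene with near-identical neighbours that shares 25.6% of its exon length. IAA29, an auxin-induced repressor, was at 0.402 ± 0.0688 CPM in se-1 and 1.96 ± 0.936 CPM in cbp20 (-2.26 ± 0.37), and IAA6 was lower by 1.08 (-1.08 ± 0.33), a call that did not hold without every library. Without cbp20 replicate 1 or se-1 replicate 1, 3 auxin genes were higher, and whichever library was left out, 1 was lower. Of 9 heat shock genes, 1 was called (11.1%, where 13.6% of all genes were). It was HSP101 (-0.30 ± 0.09), a call that did not hold without every library. Without cbp20 replicate 3, 2 heat shock genes were higher, and without cbp20 replicate 2, 2 were lower.

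**Figure D4:**
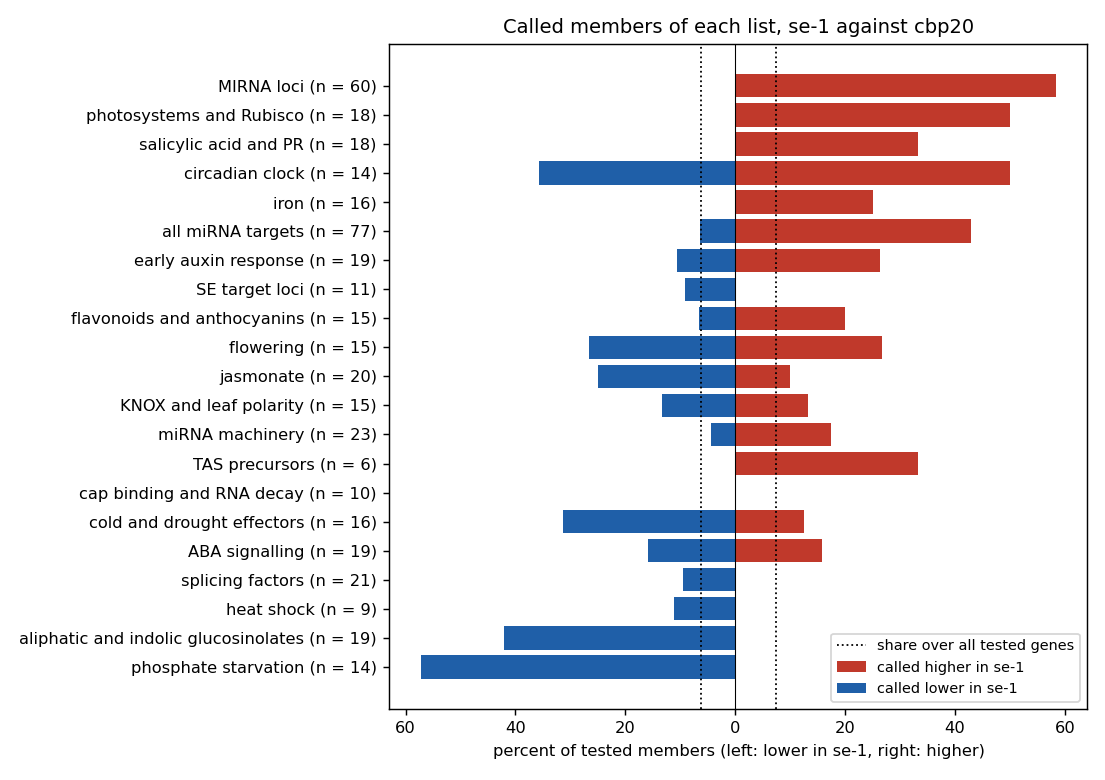
Percent of the tested members of each gene list that were called (x axis), with blue bars to the left for genes lower and red bars to the right for genes higher in se-1 than in cbp20. Dotted lines are the shares over all tested genes, 6.24% and 7.40%; MIRNA loci reach 58.3% higher and phosphate starvation genes 57.1% lower.

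Markers of organs and cell types bear on whole seedlings, in which fewer cells of a type and less RNA per cell cannot be told apart. Of 10 root markers, 3 were lower in se-1 (30.0%, where 6.24% of all genes were) and 7 were not called. None was at 0 in either group. PYK10, a root and hypocotyl glucosidase, was at 1730, 1740 and 1550 CPM in se-1 and at 2300, 2590 and 2370 CPM in cbp20 (-0.53 ± 0.07, adjusted p = 0.000108). The root hair genes RHD6 and COBL9 had -0.55 ± 0.17 and -0.38 ± 0.11, calls that did not hold without every library. Without cbp20 replicate 1, cbp20 replicate 3, se-1 replicate 2 or se-1 replicate 3, only 1 root marker was called. The summed level of the root markers was 1670 to 1870 CPM in se-1 and 2440 to 2710 CPM in cbp20; without PYK10 it was 126 to 133 CPM and 125 to 142 CPM. The part of the root share in the phosphate and iron genes was not tested. Of 4 guard cell markers, 1 was lower (25.0%, where 6.24% of all genes were), FAMA (-0.31 ± 0.07). The 4 together came to 68.8 to 79.4 CPM in se-1 and 88.0 to 91.6 CPM in cbp20. Flower markers came to 2.84 to 4.34 CPM in se-1 and 2.2 to 2.57 CPM in cbp20, with none at 0, beside the rise of AP1 and FUL, in which their part was not tested. Of the tested markers of flower (2 of 5), seed (1 of 6), shoot meristem (1 of 3), trichome (3) and vasculature (4), the number called was 0 in edgeR and in DESeq2, and 1, a trichome marker, had an unadjusted p under 0.05. Over all tested genes, 13.6% were called in edgeR. Without cbp20 replicate 1, 1 seed marker was higher.

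For the single genes that differed most, 12 in each direction were taken by the size of the fold change. They had to reach 5 CPM in one of the mutants, to have libraries that did not overlap and to be called without any 1 library. The falls were the more uniform set. PP2-A1, a phloem lectin that shares 18.8% of its exon length with another gene, was at 4.19, 4.81 and 3.69 CPM in se-1 and at 29.1, 31.3 and 29.5 CPM in cbp20 (-2.82 ± 0.10, adjusted p = 4.25e-11). WT had 65.6 CPM and cbp80 2.57 CPM, so cbp80 lay with se-1. IMPL1, an inositol monophosphatase of the chloroplast, was at 13.2, 11.8 and 12.2 CPM in se-1 and at 47.7, 46.4 and 42.9 CPM in cbp20 (-1.89 ± 0.08), with WT at 52.9 CPM and cbp80 at 41.4 CPM. CRY3, a cryptochrome of organelles, followed the same pattern, 8.63 ± 0.335 CPM in se-1, 24.1 ± 1.41 CPM in cbp20 and 22.9 CPM in WT (-1.49 ± 0.07). These 2 genes were low in se-1 alone.

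MBP1, a myrosinase-binding protein, was at 7.73 ± 1.96 CPM in se-1, 23.9 ± 1.32 CPM in cbp20 and 80.0 CPM in WT (-1.63 ± 0.15), and ALMT1, a malate channel of roots, at 3.75 ± 0.456 CPM, 10.4 ± 0.287 CPM and 16.3 CPM (-1.47 ± 0.12). IGMT1, an indole glucosinolate methyltransferase with close paralogs beside it, was lower by 1.91 (-1.91 ± 0.15), and the CCT motif gene AT1G07050 by 1.78 (-1.78 ± 0.14). CYP702A5, a cytochrome P450, the tetratricopeptide gene AT1G80130 and the phosphorylase gene AT4G28940 were lower by 1.37, 1.92 and 1.53. AT2G16005, of the MD-2-related lipid recognition family, was at 1.66, 3.61 and 3.16 CPM in se-1 and at 11.1, 22.8 and 11.1 CPM in cbp20 (-2.41 ± 0.28), with the WT mean between them.

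The rises were more variable between libraries. AT4G12490, a lipid-transfer-like protein gene, was at 6.15, 2.27 and 40.3 CPM in se-1 and at 0.22, 0.226 and 0.0537 CPM in cbp20 (6.46 ± 1.17, adjusted p = 0.00131), and its neighbour AT4G12500 at 2.72, 1.11 and 18.8 CPM and at 0.367, 0.316 and 0.269 CPM (4.49 ± 0.94). In both, se-1 replicate 3 stood far above the other se-1 libraries, and the chitinase gene AT2G43620, at 19.4, 21.4 and 74.8 CPM in se-1 and 10.8 ± 2.18 CPM in cbp20 (1.84 ± 0.38), shared this. AT4G12490 shares 35.9% of its exon length with another gene, and these genes have close copies at the same locus. CYP71A12, an enzyme of camalexin synthesis, was at 6.05, 4.21 and 10.5 CPM in se-1 and at 1.17, 1.13 and 1.56 CPM in cbp20 (2.43 ± 0.41), while WT had 5.74 CPM, so cbp20 was the low group.

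AGO3, an Argonaute gene beside AGO2 on chromosome 1, was at 5.34, 6.98 and 5.83 CPM in se-1 and at 1.76, 1.76 and 1.88 CPM in cbp20 (1.75 ± 0.18, adjusted p = 6.01e-06). WT had 0.658 CPM and cbp80 3.32 CPM. BCB, a blue copper-binding protein, was at 18.9 ± 6.42 CPM in se-1 and 5.3 ± 0.808 CPM in cbp20 (1.83 ± 0.22). WSD1, a wax ester synthase, was higher by 1.93 ± 0.32, the SAUR-like gene AT2G21220 by 1.78 ± 0.17 and the late embryogenesis abundant gene AT3G02480 by 2.45 ± 0.50. The remaining 3 of the 12 rises, MIR172b, MIR169a and CBP20, are described above.

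**Figure D5:**
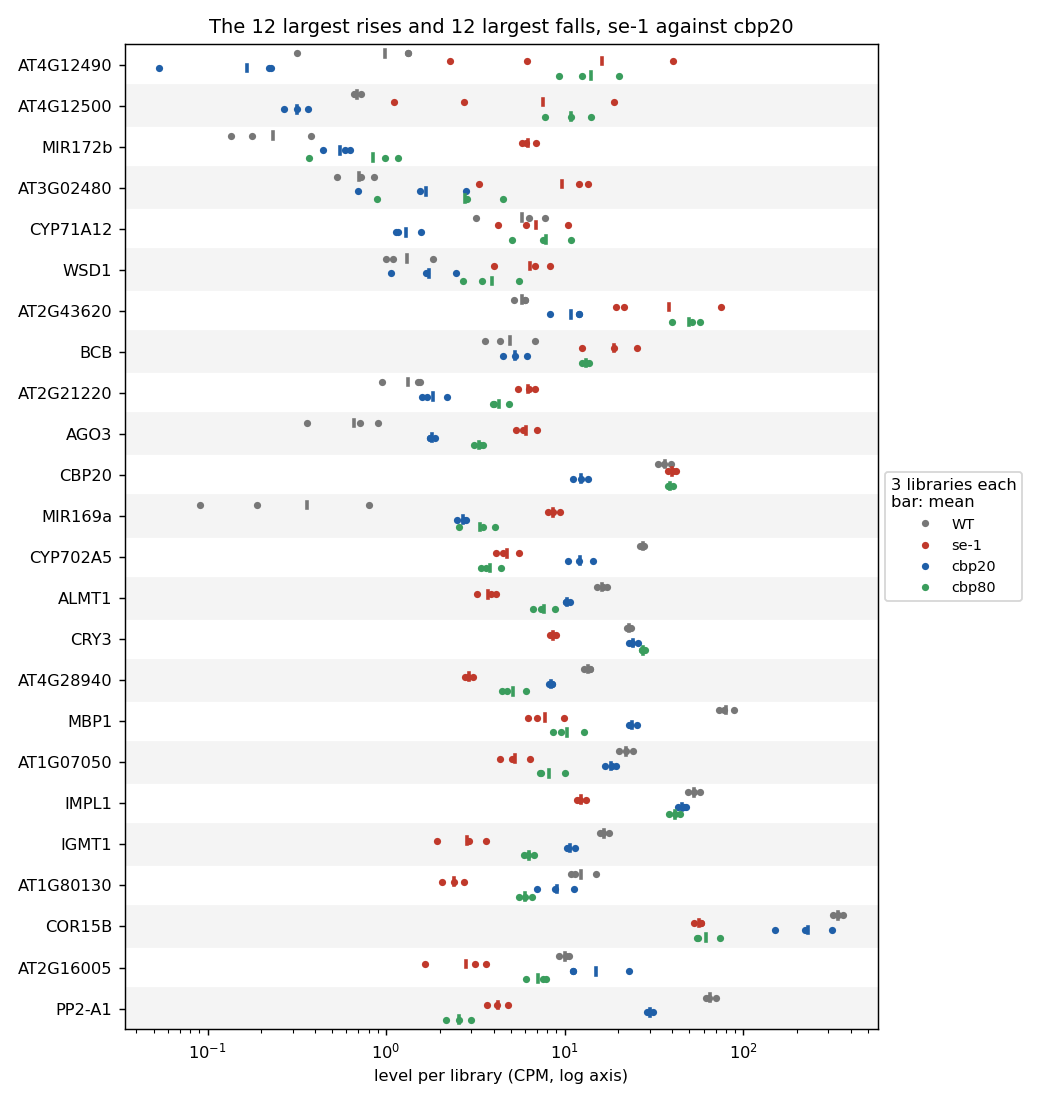
Level of each library (x axis, CPM on a log axis) for the 12 largest rises (upper rows) and 12 largest falls (lower rows) between se-1 and cbp20. Points are single libraries of the 4 genotypes and bars are means of 3; the 3 se-1 points of AT4G12490 spread from 2.27 to 40.3 CPM, while those of IMPL1 lie between 11.8 and 13.2 CPM.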

How the data were processed

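Poly(A) RNA-seq of 16-day-old Col-0 seedlings gave 12 libraries, 3 for each of the 4 genotypes, grouped by the genotype in their labels. The authors discarded rRNA and tRNA reads (Bowtie2 2.1.0), mapped the rest to TAIR10 (TopHat2 2.1.1) and assigned read pairs to genes by featureCounts. The deposited values are raw counts, whole numbers without normalization. Strand was not used, and pairs with several alignments or on several genes were not counted, which lowers overlapping genes and near-identical copies. The authors' DESeq2 1.14.1 tables of each mutant against WT (fold changes and p-values) were not used. Exon length, deposited in the same table, was not used in any value.

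Genes that reached 10 counts in 3 or more of the 12 libraries were normalized by TMM and tested in edgeR 4.0.16 (R 4.3.3) by the quasi-likelihood test in 1 fit of 4 groups. The contrast was se-1 minus cbp20, with Benjamini-Hochberg adjustment over 20882 genes and calls at an adjusted p under 0.05. The standard error, which is approximate, divides the log2 fold change by the root of F. The script was tested on simulated data. Symbols, introns (first isoform) and overlaps came from RefSeq TAIR10.1, where 32532 of 32548 paired genes (99.95%) have the same ends. Replicates are separate pools of plants; p-values measure the spread between 3 libraries a group, and intervals cover counting error only. A floor of 3 counts over the group was used for genes at 0.

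Gene lists and members were chosen with earlier results of these data known, so lists are described by counts and medians without a test. The named genes were the 3 mutated genes, the 12 largest differences in each direction and up to 4 called members of each list in each direction. Further MIRNA loci, uncalled members and list members outside this rule were named after their values were seen, for their level or role. Alternatives were DESeq2 1.42.0, its size factors, library totals, no filter, the 6 libraries alone, a replicate block and leaving out each library.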

Additional observations from a re-analysis of the deposited data

Results flagged for a closer look

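In 104 of the 2847 called genes (3.65%), all 3 se-1 libraries lay on one side of all 3 WT libraries and all 3 cbp20 libraries on the other: 54 were above WT in se-1 and below it in cbp20, and 50 the reverse. The share of such genes over all tested genes was not counted. The difference between the 2 changes from WT is the direct contrast of se-1 and cbp20, since WT cancels, and was tested as such. Among the named genes this held for 9. The log2 fold change, se-1 minus cbp20, was 6.46 for AT4G12490, 4.49 for AT4G12500, 0.51 for AGO1, 0.55 for TAS1C and 0.46 for KNAT1. It was -2.41 for AT2G16005, -0.44 for STA1, -0.66 for SNZ and -0.38 for TOC1. For AT4G12490, AT4G12500 and AT2G16005 the edgeR contrast of cbp20 against WT was not called (adjusted p = 0.414, 0.660 and 0.0863). Nor was that contrast called for AGO1, TAS1C, KNAT1 and STA1 (adjusted p = 0.484, 0.289, 0.0697 and 0.100). In all of these genes a change from WT was thus not called on both sides. For SNZ the contrast of cbp20 against WT was called (adjusted p = 0.00505). AGO1 was at 294 CPM in se-1, 216 CPM in WT and 207 CPM in cbp20, so most of the gap lay on the side of se-1. STA1 was at 61.1 CPM in se-1, 74.5 CPM in WT and 82.8 CPM in cbp20. TOC1 was at 115 CPM in se-1, 144 CPM in WT and 150 CPM in cbp20, close to WT in cbp20.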

How the results depend on the processing

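The 2847 calls became 2853 with DESeq2's size factors, 3106 with library totals alone, 3007 without the filter, 2302 with the 6 libraries alone and 2577 in DESeq2, and leaving out 1 library gave 1925 to 2424. The genes called lower in se-1 than in cbp20 numbered 830 to 1126 when 1 library was left out. They fell from 1302 to 830 without se-1 replicate 3, and higher ones numbered 1095 to 1334. Genes at least 2-fold apart numbered 283 to 380 in these fits. The replicate block gave 3011 calls, 2748 of them shared with the main fit. Deviations of samples of the same number had correlations of 0.099, 0.045 and -0.067, and 1 of the 3 correlated best with its own number. With 3 libraries a group, these values cannot settle whether the numbers pair the libraries. Of 142 called named genes, 100 held their call and direction under every alternative, 37 lost the call under at least 1, and 5 held it wherever they were tested but fell below the filter in some fits. For 0 of the 142 the direction turned. Among uncalled genes the sign turned for MAPKKK14 (-0.015 without se-1 replicate 1 and -0.012 without cbp20 replicate 2, within a leave-one-out range of -0.015 to 0.189), ERF4 (-0.032 to 0.383) and AT5G65207 (-0.135 to 0.159), the other two without cbp20 replicate 2. The cause of these shifts was not tested.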

Other observations

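Neighbouring genes sometimes differed together, a pattern chosen after the values were seen. The 4 adjacent tested genes of the thalianol cluster on chromosome 5, which make a root triterpene, were each lower in se-1. THAS1, the cyclase, was at 23.0 CPM in se-1, 54.5 CPM in cbp20 and 51.3 CPM in WT (-1.25 ± 0.07), CYP708A2 at 16.3, 38.1 and 36.7 CPM (-1.23 ± 0.09) and CYP705A5 at 35.1, 85.5 and 84.9 CPM (-1.28 ± 0.10). AT5G47980 differed by -1.66 ± 0.23 and AT5G47950, of the same cluster, by -1.11 ± 0.13. In THAS1, CYP708A2 and CYP705A5, se-1 was low while cbp20 lay beside WT. AT5G47980 was at 0.752 CPM in se-1, 2.41 CPM in cbp20 and 3.28 CPM in WT, and AT5G47950 at 2.98, 6.5 and 7.74 CPM. In these last genes the cbp20 libraries lay below the WT libraries, and neither difference of cbp20 from WT was called. CYP71A16 of the marneral cluster, another root triterpene pathway, was at 2.73 CPM in se-1, 6.04 CPM in cbp20 and 4.73 CPM in WT (-1.13 ± 0.18). CYP705A12 of the same cluster was at 2.47, 3.46 and 2.04 CPM and was not called (-0.49 ± 0.17, adjusted p = 0.0675). The root marker PYK10 differed by -0.53 in the same libraries, and the part of the root share in these values was not tested.

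Runs of at least 4 adjacent tested genes called in the same direction numbered 6 on the 5 nuclear chromosomes. A run of 6 genes on chromosome 4, AT4G15660 to AT4G15710, was higher in se-1 by 0.65 to 1.44. It holds close copies of a gene of the thioredoxin superfamily. As pairs that align to several copies were not counted, levels of single members are uncertain. Another run of 6, on chromosome 5 from MAKR1 to AT5G26290, was lower by values from -1.24 to -0.33. Of 102 tested plastid genes, 1.96% were called, where 13.6% of all genes were.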
